A study of Mus musculus with 2 samples.

Results

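The genes examined here are *Atp1b1*, *Atp1b2*, *Atp1b3*, *Slc12a2* and *Slc12a5*, which are 5 of the 25556 genes in the deposited count table. They were chosen by name, and no measured value entered the choice. The first 3 encode beta subunits of the sodium pump, and the other 2 encode cotransporters that set chloride inside the cell. The question followed here is which of these genes the neurons and glia of the brainstem use, and whether their levels differ between a mouse model of Dravet syndrome (DS) and its wildtype littermate.

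The sodium pump uses ATP to export sodium and import potassium, and restores both gradients after neuronal firing. Each pump pairs a catalytic alpha subunit with a beta subunit, which carries the complex to the plasma membrane, and small FXYD proteins tune its activity. *Slc12a2* encodes NKCC1, which moves chloride into cells with sodium and potassium, and *Slc12a5* encodes KCC2, which moves chloride out of mature neurons with potassium. The balance of both cotransporters decides how strongly GABA and glycine, the inhibitory transmitters of the brainstem, can hyperpolarize a neuron.

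Single-nucleus RNA-seq was performed on the brainstem of 1 WT and 1 HET mouse, both untreated females at postnatal day 41 on a C57Bl6 background. The HET mouse carried *Scn1a* A1783V/WT, a knock-in missense allele with loss of function of a voltage-gated sodium channel alpha subunit, and was bred from an *Scn1a* floxed male and a Sox2-Cre female, which recombines the allele throughout the embryo. The WT mouse was a littermate with intact *Scn1a*, and the HET mouse had lived past the age of highest mortality of this line, and a seizure before collection was not a condition. Each genotype is thus 1 library from 1 mouse, so that no test between genotypes could be run, and differences between animals, libraries and genotypes cannot be told apart. *Scn1a* itself was counted at 380 CPM (UMIs of the gene among 1000000 counted in a set of nuclei) in WT and 420 CPM in HET. Such counts do not tell the missense allele from the normal one and check neither label.

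The WT library held 70301390 unique molecular identifiers (UMIs, each standing for 1 captured RNA molecule) in 9259 nuclei, and the HET library 66176778 UMIs in 9022 nuclei. All levels are given in CPM of the same nuclei and library. Intervals are exact 95% Poisson or binomial intervals, which cover counting error only. A total of 23 barcodes occurred in both libraries. The nuclei carry 16 deposited cluster names, of which 12 had at least 30 nuclei in each library: neuron.1 to neuron.5, neuron.7, oligo (oligodendrocytes), astro (astrocytes), micro (microglia), endo (endothelial cells), fibro (fibroblasts) and epend.1 (ependymal cells). Neuronal clusters made up 66.1% of WT and 59.8% of HET nuclei, and oligo 19.1% and 26.4%. Ribosomal protein genes made up 0.583% of the WT and 0.348% of the HET UMIs. Defining markers of the main types were counted in other clusters too, so their summed levels are given. Oligodendrocyte genes were at 10337 CPM (WT) and 11826 CPM (HET) in oligo, 2251 and 2129 CPM in astro, and 473 and 577 CPM in the neuronal clusters. Astrocyte genes were at 3239 and 4371 CPM in astro, against 71.3 and 67.7 CPM in the neuronal clusters. Neuronal genes were at 13698 and 13498 CPM in the neuronal clusters, against 1252 and 1726 CPM in oligo. The granule cell genes summed to 566 CPM (WT) and 632 CPM (HET) in neuron.5, and the serotonergic genes to 1629 and 2553 CPM in neuron.7. Neuron.5 also held oligodendrocyte genes at 1399 and 2447 CPM, above the neuronal clusters together. Endo held endothelial genes at 5290 and 3781 CPM, beside neuronal genes at 1422 and 3203 CPM and oligodendrocyte genes at 2111 and 2500 CPM. The micro cluster was mixed by its markers, with neuronal genes summing to 8895 CPM in WT and 9801 CPM in HET, beside 545 and 628 CPM for the microglial genes. So was fibro, with neuronal genes at 2943 and 2947 CPM and oligodendrocyte genes at 1787 and 2042 CPM, beside 694 and 910 CPM for the fibroblast genes. The epend.1 cluster was mixed as well, with neuronal genes at 3108 and 6802 CPM, beside 1223 and 810 CPM for the ependymal genes.

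Among the beta subunits, *Atp1b2* was the one that separated astrocytes from all other clusters. It encodes beta2, also known as an adhesion molecule on glia. In the astro cluster it reached 386 CPM in WT (interval 360 to 413) and 420 CPM in HET (396 to 446). In the neuronal clusters together it was at 17.3 CPM in WT and 19.9 CPM in HET, so that astrocytes were 22.3-fold (WT) and 21.1-fold (HET) above neurons. Oligodendrocytes held 37.0 and 41.8 CPM, which was 2.14-fold and 2.10-fold above neurons. The endo cluster ranked next to astrocytes in both libraries, at 112 CPM (WT) and 73.4 CPM (HET), with intervals below those of astrocytes. Most neighbours below it in the order had overlapping intervals. Lowest were neuron.3 and neuron.4, at 6.68 and 6.91 CPM in WT and at 12.7 and 11.9 CPM in HET.

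The share of nuclei with at least 1 *Atp1b2* UMI was also highest in astrocytes. For this comparison the nuclei were limited to those whose second deposited label, from a reference atlas, named the same cell type. Of such astrocytes, 69.9% in WT and 74.6% in HET held a UMI, at median depths of 2896 and 3316 UMIs. Of neurons, 15.1% and 17.3% did so at median depths of 7751 and 8391 UMIs, and of oligodendrocytes 10.6% and 12.2%. With every nucleus thinned to 1000 UMIs the shares were 33.4% and 34.6% in astrocytes, 3.76% and 4.59% in oligodendrocytes and 2.47% and 2.68% in neurons. Oligodendrocytes thus lay below neurons before thinning and above them after it, as they did by level. Free RNA in the droplets can give such low shares. The *Atp1b2* level in neurons was 4.51% of that in astrocytes, whereas the astrocyte genes *Slc1a2*, *Aqp4*, *Gja1* and *Slc1a3* were at 1.90%, 1.40%, 2.13% and 1.17%. *Atp1b2* thus stood above these 4 genes in neurons. In oligodendrocytes it was at 9.68% of its astrocyte level, between *Slc1a2* at 2.63% and *Slc1a3* at 28.1%.

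**Figure D1:**
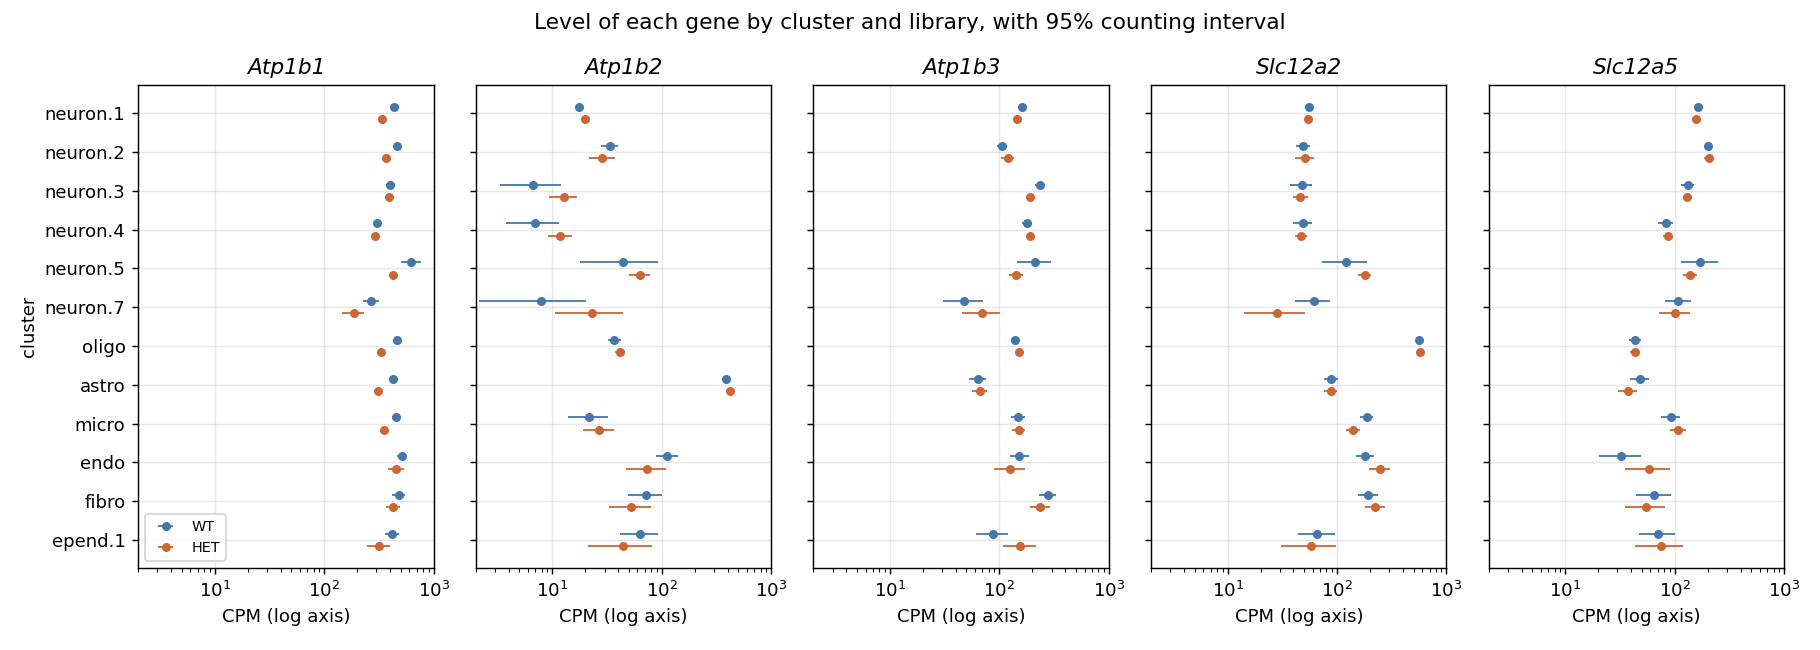
Level of each gene in CPM (log axis) in the 12 clusters, for WT (blue) and HET (orange), with bars for the exact 95% Poisson interval. *Atp1b2* stands out in astro at 386 and 420 CPM, *Slc12a2* in oligo at 566 and 567 CPM, and *Slc12a5* in the neuronal clusters, whereas *Atp1b1* varies little.

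*Atp1b1*, which encodes beta1, the most widespread form, varied least between cell types. It was at 417 CPM in WT neurons and 339 CPM in HET neurons. Astrocytes were at 425 and 310 CPM and oligodendrocytes at 460 and 331 CPM. Astrocytes were thus 1.02-fold (WT) and 0.915-fold (HET) the neuronal level. Within the neurons the range was wider, from 268 CPM in neuron.7 to 623 CPM in neuron.5 for WT and from 186 to 429 CPM in the same clusters for HET. In both libraries neuron.4 and neuron.7 were the lowest of the 12 clusters, and all neighbours above these in the order had overlapping intervals.

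*Atp1b3*, which encodes beta3, was low in astrocytes. It was at 63.4 CPM in WT and 66.1 CPM in HET astrocytes, whereas neurons were at 160 and 151 CPM, a 2.52-fold and 2.29-fold difference. Oligodendrocytes lay near the neurons, at 138 and 152 CPM. The highest level was in the mixed fibro cluster, at 279 and 236 CPM, followed by neuron.3 at 233 and 191 CPM with overlapping intervals. The serotonergic cluster neuron.7 was as low as the astrocytes, at 47.3 CPM (interval 30.3 to 70.3) in WT and 69.6 CPM (45.8 to 101) in HET.

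Expressed as a share of the UMIs of the 3 beta subunit genes, the composition was distinct in astrocytes. UMIs are not scaled for transcript length or capture, so the same share is compared between clusters, and shares of different genes are not compared with each other. *Atp1b2* took 44.1% (interval 41.9 to 46.4) of the beta subunit UMIs of WT astrocytes and 52.7% (50.6 to 54.9) in HET. In the other 11 clusters its share ran from 1.05% in neuron.3 of WT to 14.4% in endo of WT. *Atp1b3* took 7.25% and 8.29% in astrocytes, against 26.9% and 29.6% in neurons and 21.8% and 29.0% in oligodendrocytes. *Atp1b1* took 48.6% (46.3 to 50.9) of the astrocyte beta subunit UMIs in WT and 39.0% (36.9 to 41.1) in HET. In oligodendrocytes the *Atp1b1* share was 72.4% in WT and 63.0% in HET, and in neurons 70.2% and 66.5%.

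**Figure D2:**
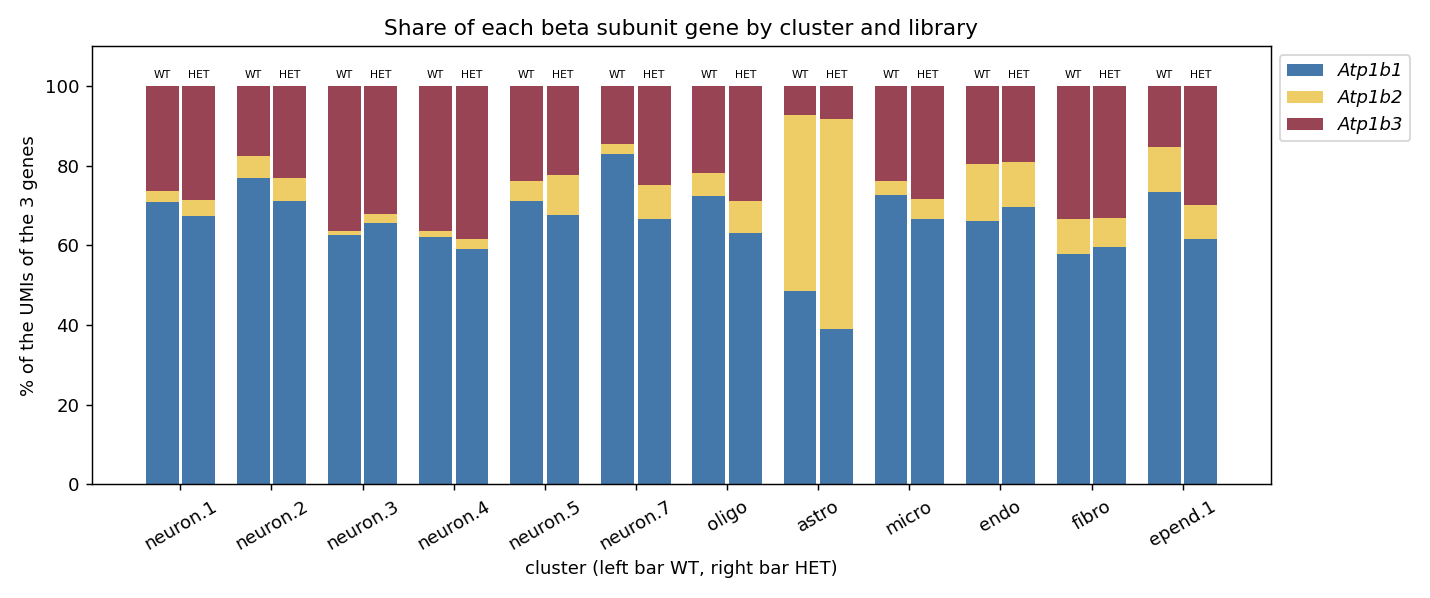
Share of *Atp1b1*, *Atp1b2* and *Atp1b3* in the UMIs of the 3 genes (%, stacked to 100) by cluster, with WT as the left and HET as the right bar. The yellow *Atp1b2* part is 44.1% (WT) and 52.7% (HET) in astro and at most 14.4% in the other clusters shown.

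*Slc12a5* was higher in neurons than in glia. It was at 160 CPM in WT neurons (interval 157 to 163) and 148 CPM in HET neurons (145 to 151). Oligodendrocytes held 43.8 and 43.2 CPM and astrocytes 47.8 and 37.3 CPM. Neurons were thus 3.65-fold (WT) and 3.42-fold (HET) above oligodendrocytes and 3.35-fold and 3.97-fold above astrocytes. Within the neurons neuron.2 was highest, at 200 and 206 CPM, and neuron.4 lowest, at 82.5 and 86.8 CPM. Both libraries placed these clusters alike at the ends of the neuronal order, and the intervals of neuron.2 and neuron.4 did not overlap. The level in micro, 92.3 and 107 CPM, lay mostly in its subcluster 18 (142 CPM over both libraries), which held the neuronal gene *Rbfox3* at 429 CPM. In the micro nuclei that the reference label also calls microglia, *Slc12a5* was counted 5 times in each library.

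Neuronal RNA was also found in glial nuclei. In oligodendrocytes *Slc12a5* stood at 28.0% of its neuronal level. The neuronal genes *Rbfox3*, *Snap25*, *Syt1* and *Meg3* stood at 10.8%, 21.0%, 8.56% and 10.8%, and the transmitter transporters *Slc17a6* and *Slc32a1* at 52.5% and 79.6%. The share of *Slc12a5* therefore lay above *Rbfox3*, *Snap25*, *Syt1* and *Meg3* and below *Slc17a6* and *Slc32a1*. In astrocytes it was at 26.0%, again between *Snap25* at 19.4% and *Slc17a6* at 52.4%. A UMI of *Slc12a5* was found in 72.5% of WT and 71.6% of HET neurons and in 13.0% and 12.8% of oligodendrocytes, or in 16.8% and 15.2% against 4.80% and 4.64% after thinning. The source of the glial share was not tested, so it is not read as expression.

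*Slc12a2* was highest in oligodendrocytes, at 566 CPM in WT (interval 547 to 585) and 567 CPM in HET (551 to 584). This was 10.1-fold (WT) and 10.2-fold (HET) the neuronal level of 56.2 and 55.8 CPM. No other cluster of the 12 came near, the next being fibro at 194 CPM in WT and endo at 248 CPM in HET. The 4 oligodendrocyte subclusters of the deposited finer clustering were alike, between 542 and 594 CPM over both libraries. A UMI of *Slc12a2* was found in 76.0% of WT and 77.7% of HET oligodendrocytes.

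In several other nuclei *Slc12a2* moved with the oligodendrocyte gene *Mog*, a myelin protein gene. Subcluster 26 of the astrocytes held *Slc12a2* at 283 CPM and *Mog* at 513 CPM, whereas subcluster 4, the main one, held 51.8 and 62.9 CPM. The same was seen for micro subcluster 28, at 451 and 772 CPM. *Slc12a2* UMIs per *Mog* UMI were 0.616 in oligo (interval 0.598 to 0.633), 0.660 in astro (0.582 to 0.749) and 0.585 in micro subcluster 28 (0.501 to 0.682). The ratio was thus alike in these 3 sets of nuclei. In astrocyte subcluster 4 alone it was 0.824 (0.673 to 1.01), above the oligo interval. The level of *Slc12a2* in all astrocytes was 14.9% of the oligodendrocyte level, close to *Mog* at 13.7% and *Mbp* at 14.7%. The source of this astrocyte level was not tested, so it is not read as expression.

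The ratio was higher in some other nuclei. It was 2.29 in all neuronal clusters together (interval 2.19 to 2.39), where *Slc12a2* stood at 9.85% of its oligodendrocyte level against 2.64%, 2.62% and 3.58% for *Mog*, *Mag* and *Mbp*. It was 5.53 (3.28 to 9.89) in endo subcluster 29, a set of 45 WT and 41 HET nuclei with *Slc12a2* at 493 CPM and with the endothelial gene *Flt1* at 184 CPM against 3158 CPM in subcluster 17. The highest ratio among the deposited clusters, 10.4 (6.68 to 16.9), was in epend.2, whose leading marker was the choroid plexus gene *Ttr*. That cluster had 108 WT and 6 HET nuclei and held *Slc12a2* at 540 CPM in WT. NKCC1 is known from the apical side of the choroid plexus epithelium.

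**Figure D3:**
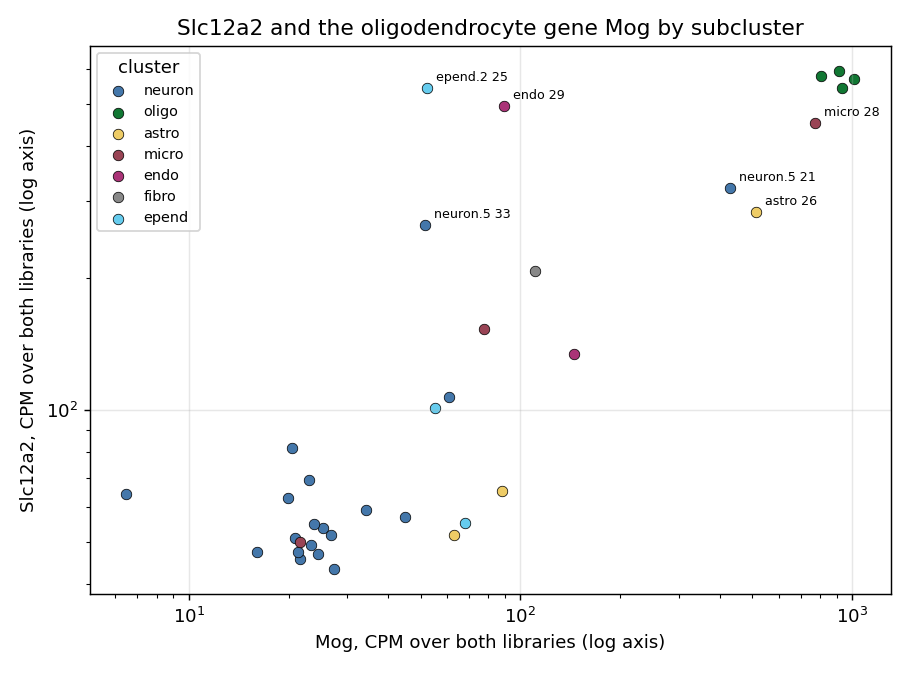
Level of *Slc12a2* against *Mog*, both in CPM over both libraries on log axes, with a point for each subcluster of at least 40 nuclei, coloured by cluster. Points of micro 28 (451 CPM *Slc12a2*), astro 26 (283 CPM) and neuron.5 21 lie towards the oligodendrocytes at the upper right, whereas epend.2 25 and endo 29 are high in *Slc12a2* at low *Mog*.

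The balance of *Slc12a5* over *Slc12a2* UMIs is given as a log2 ratio and compared between neuronal clusters. For all neurons it was 1.51 in WT (interval 1.45 to 1.57) and 1.40 in HET (1.34 to 1.47). Neuron.2 stood at 2.02 and 2.01, above neuron.1 at 1.56 and 1.51 and neuron.3 at 1.47 and 1.50. Neuron.4 was lower in both libraries, at 0.75 (0.39 to 1.13) and 0.89 (0.66 to 1.12). In neuron.5, the cluster with granule cell genes, it was 0.51 (−0.39 to 1.44) in WT, where it rests on 27 *Slc12a5* and 19 *Slc12a2* UMIs, and −0.37 (−0.67 to −0.08) in HET. The low HET value moved with subclusters 21 and 33, at −1.66 and −0.90 over both libraries, the former of which held *Mog* at 429 CPM. In subcluster 15, the largest of neuron.5, the log2 ratio was 1.35 (0.19 to 2.65) in WT and 0.43 (0.03 to 0.83) in HET. These intervals overlapped, and the WT value rests on 23 *Slc12a5* and 9 *Slc12a2* UMIs. Oligodendrocyte genes summed to 1399 CPM in WT and 2447 CPM in HET neuron.5, and their part in its values was not tested.

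Neurons were also split by transmitter into glutamatergic and inhibitory nuclei, each with 5 or more UMIs of its own marker genes and 5 times as many as of the opposite class. The log2 ratio of *Slc12a5* over *Slc12a2* was 1.2 (interval 0.92 to 1.50) in 134 WT and 0.98 (0.75 to 1.21) in 225 HET glutamatergic nuclei, and 1.36 (1.25 to 1.47) in 1107 WT and 1.40 (1.26 to 1.54) in 785 HET inhibitory nuclei. The WT intervals of both classes overlapped, whereas those of HET did not. *Slc12a5* itself was at 111 and 115 CPM in glutamatergic and at 142 and 139 CPM in inhibitory nuclei. The subunit *Atp1b1* was lower in glutamatergic than in inhibitory nuclei as well, at 333 and 299 CPM against 414 and 339 CPM. The glutamatergic nuclei so chosen were few and deep, with 1.45% of WT and 2.49% of HET nuclei but 4.28% and 6.25% of UMIs. They do not stand for all glutamatergic neurons. Neuron.2, high in *Slc12a5*, held glutamatergic genes at 163 and 190 CPM against 58.4 and 50.4 CPM for inhibitory genes. Neuron.4, low in *Slc12a5*, held 195 and 180 CPM against 30.1 and 18.7 CPM.

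**Figure D4:**
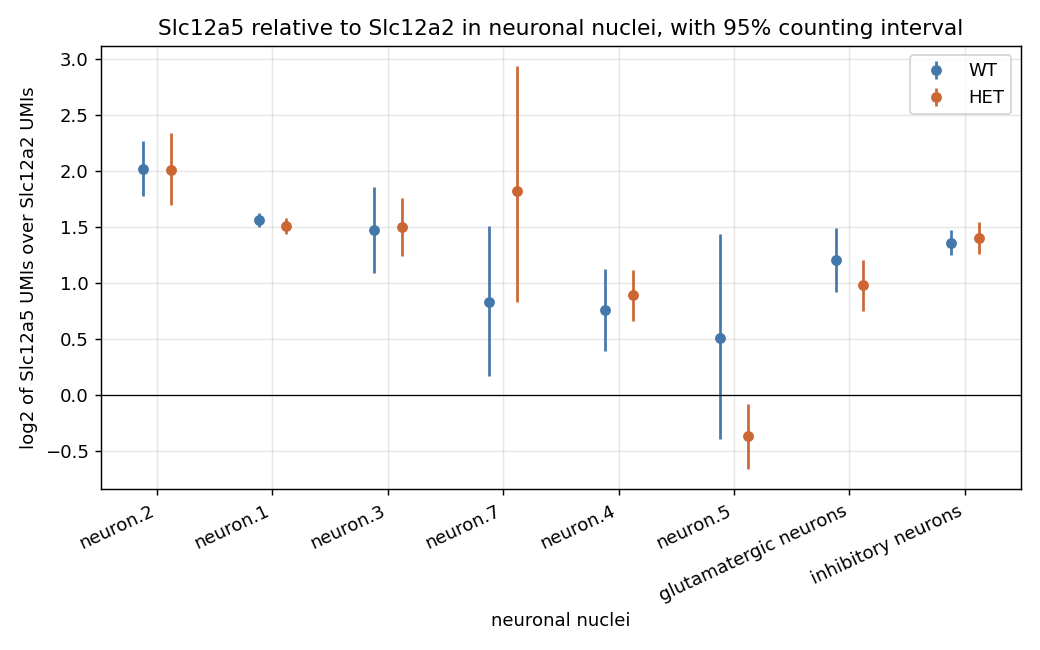
Log2 ratio of *Slc12a5* over *Slc12a2* UMIs in 6 neuronal clusters and 2 transmitter classes, for WT (blue) and HET (orange), with exact 95% counting intervals. Neuron.2 is near 2 in both libraries and neuron.4 below 1, and the HET value of neuron.5 is −0.37.

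For comparison with all genes, a 2-fold difference in the same direction in both libraries was counted among the 16347 genes with at least 200 UMIs. In astrocytes over neurons, 13.1% of these genes were higher by that measure, and so was 1 of the 5, *Atp1b2*. Another 18.4% were lower, and so were *Atp1b3* and *Slc12a5*. In oligodendrocytes over neurons 11.3% were higher, *Atp1b2* and *Slc12a2* among them, and 25.6% were lower, *Slc12a5* among them. *Atp1b1* passed in neither comparison. The 2-fold limit was set after the values had been seen.

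Between the genotypes, *Atp1b1* was the gene that differed in the same direction in every cluster. Over all nuclei it was at 424 CPM in WT (interval 420 to 429) and 339 CPM in HET (334 to 343), a log2 ratio of −0.33 (−0.35 to −0.30). It was lower in HET in 12 of 12 clusters, from −0.54 in neuron.5 to −0.037 in neuron.3. The interval lay below 0 in 7 of them, neuron.1, neuron.2, neuron.5, neuron.7, oligo, astro and micro. In neuron.1, the largest cluster, it was at 432 CPM (WT) and 339 CPM (HET). In astrocytes the log2 ratio was −0.45 (−0.59 to −0.32). In neuron.3 and neuron.4 the libraries lay close together, at 399 and 389 CPM and at 303 and 293 CPM. Of 4544 genes with at least 20 UMIs in each cluster, 9.51% were lower in HET in every cluster.

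In oligodendrocytes the *Atp1b1* log2 ratio was −0.47 (interval −0.55 to −0.39), and it differed between the subclusters. Subclusters 7 and 8 came mostly from opposite libraries, so that makeup and library cannot be told apart there. Subcluster 8, with 825 WT and 35 HET nuclei, held *Atp1b1* at 609 CPM over both libraries, and subcluster 7, with 133 WT and 730 HET nuclei, at 295 CPM. Within subcluster 7 the log2 ratio was 0.085 (−0.12 to 0.29) and within subcluster 8 it was 0.29 (−0.092 to 0.65). In subcluster 2, shared evenly with 768 and 789 nuclei, it was −0.49 (−0.62 to −0.36), and in subcluster 6 it was −0.72 (−1.08 to −0.34). Over the 27 subclusters with at least 30 nuclei in each library *Atp1b1* was lower in HET in 25, all but subclusters 7 and 8 of oligo, with a median of −0.32. Among 1395 genes with at least 20 UMIs in each of the 27, 15.1% were lower in as many or more.

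*Atp1b1* shares 617 bases with *Nme7*, a gene on the opposite strand. Whether the counting used strand is not given in the sources used here, and without it their reads cannot be told apart. *Nme7* was at 225 CPM in WT and 155 CPM in HET, a log2 ratio of −0.54 (interval −0.58 to −0.50), and was lower in HET in 12 of 12 clusters. Its part in the *Atp1b1* values was not tested.

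The direction of *Atp1b1* is also that of most genes. Of the 16347 genes 33.6% were at least 1.2-fold lower and 15.6% at least 1.2-fold higher in HET over all nuclei, a limit set after the values had been seen. *Atp1b1* was the 1 gene of the 5 past it on the lower side and *Atp1b2* the 1 on the higher side. The median log2 ratio of all genes was −0.10, and 28.5% of the genes had a lower ratio than *Atp1b1*. Ratios moved with gene length, with medians of −0.36 for genes under 10 kb, −0.15 from 10 to 50 kb and 0.053 above 50 kb. Of the genes in the class of *Atp1b1*, which spans 21.2 kb, 28.9% had a lower ratio. *Atp1b2*, at 6.21 kb, had a higher ratio than 86.2% of its class. The ribosomal share, which was lower in HET, moved with the short genes. With totals without ribosomal protein genes the ratios of *Atp1b1* and *Atp1b2* were −0.33 and 0.29. Any part of the ribosomal share beyond this scaling was not tested.

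*Atp1b2* was at 31.7 CPM in WT and 39.0 CPM in HET over all nuclei, a log2 ratio of 0.30 (interval 0.22 to 0.38). Within astrocytes, where its level was highest, the ratio was 0.12 (−0.01 to 0.26). It was lower in HET in 4 and higher in 8 of the 12 clusters, with an interval above 0 in neuron.1 alone (0.19, 0.05 to 0.33). The astro cluster took 3.01% of the WT and 3.93% of the HET UMIs, and with equal cluster weights in both libraries the ratio over all nuclei was 0.15. The astrocyte genes summed to 55.6 CPM in WT and 66.2 CPM in HET neuron.1, with all 4 counted in both, and their part in the neuron.1 value was not tested.

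*Slc12a2* was higher in HET over all nuclei, at 122 CPM against 106 CPM in WT, a log2 ratio of 0.20 (interval 0.15 to 0.24). In oligodendrocytes it was 0.0043 (−0.061 to 0.070) and in neurons −0.0085 (−0.080 to 0.063). With equal cluster weights in both libraries the ratio over all nuclei was −0.0061. The oligo cluster took 8.31% of the WT and 11.9% of the HET UMIs, so the difference over all nuclei was not seen inside the cluster where the gene was highest. It was lower in HET in 7 of 12 clusters and higher in 5. Choroid plexus genes, whose own nuclei are rich in *Slc12a2*, summed to 747 CPM in WT and 133 CPM in HET oligodendrocytes, with all 3 counted in both libraries. Their part in the *Slc12a2* values was not tested.

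*Slc12a5* was at 143 CPM in WT and 129 CPM in HET over all nuclei, a log2 ratio of −0.15 (interval −0.19 to −0.11). The median of all genes was −0.10, and 45.0% of the genes had a lower ratio than *Slc12a5*. In its length class, 10 to 50 kb, the median was −0.15. Within neurons the *Slc12a5* ratio was −0.11 (−0.16 to −0.07). Of the neuronal clusters, neuron.1 was at −0.085 (−0.13 to −0.04), whereas neuron.2, neuron.3 and neuron.4 were at 0.042, −0.0077 and 0.073, and neuron.5 and neuron.7 at −0.32 and −0.11, all with intervals that spanned 0. Over the 12 clusters it was lower in 7 and higher in 5. *Atp1b3* was at 155 and 148 CPM, a log2 ratio of −0.066 (−0.11 to −0.03), with 5 clusters lower and 7 higher. The sign of this small *Atp1b3* difference turned under other scalings, to 0.037 with the median gene set to 0 and to 0.012 as a mean over nuclei.

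**Figure D5:**
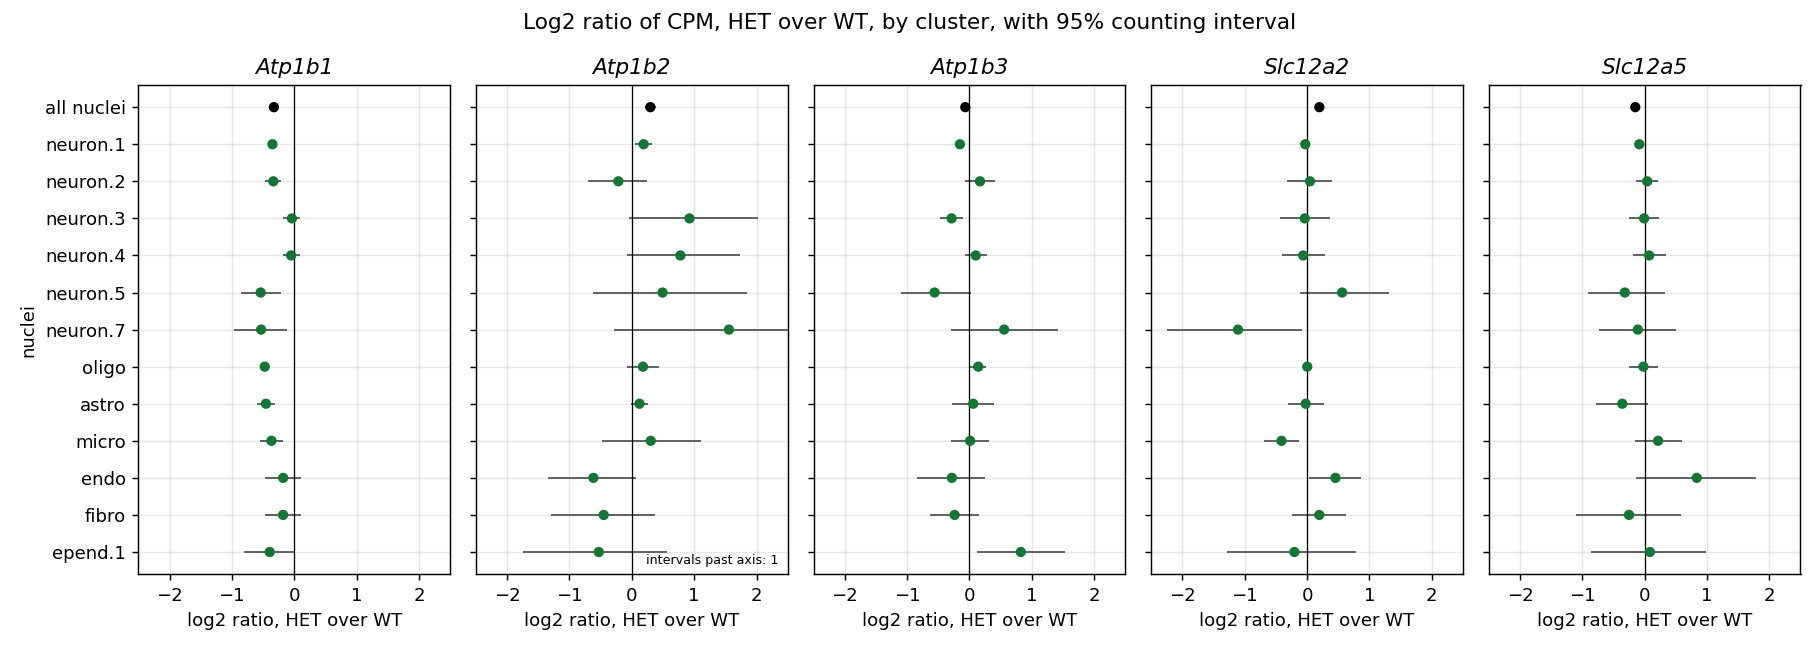
Log2 ratio of CPM, HET over WT, for each gene over all nuclei (black) and in the 12 clusters (green), with exact 95% counting intervals and a line at 0; 1 interval of *Atp1b2* runs past the axis. *Atp1b1* lies left of 0 in all 12 clusters, from −0.54 to −0.037, and the other 4 genes lie on both sides.

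Genes that work with these 5 were counted in fixed lists. Their counts stand against 61.7% of all genes lower in HET, and 76.1% of those under 10 kb. All 5 FXYD pump regulators with at least 200 UMIs were lower, with a median of −0.63, and 3 of them passed 1.2-fold, against 33.6% of all genes. Of these, *Fxyd7* was at −0.65 and lower in 11 of 12 clusters, *Fxyd1* (phospholemman) at −0.63 and *Fxyd5* at −0.94. The level of *Fxyd7* in neurons lay near that in astrocytes, with a mean log2 ratio of −0.13. It lay above that in oligodendrocytes, with a mean log2 ratio of 0.53. In endo nuclei with agreeing labels *Fxyd5* was at 385 CPM (WT) and 254 CPM (HET), against 5.33 and 3.40 CPM in neurons. The endo cluster took 0.962% of the WT and 0.494% of the HET UMIs, and its part in the *Fxyd5* ratio was not tested. *Fxyd4* and *Fxyd6* were both at −0.12. The last 2 lay close to the median of all genes, −0.10, which was inside their intervals.

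Of the Nkain genes, whose products bind the pump, 3 of 4 were higher, against 6263 of the 16347 genes, with *Nkain1* at 0.81, *Nkain2* at 0.26, *Nkain3* at 0.011 (interval −0.019 to 0.041) and *Nkain4* at −0.23. *Nkain1* and *Nkain2* were higher in oligodendrocytes than in neurons, with mean log2 ratios of neurons over oligodendrocytes of −3.63 and −2.71. Within oligo *Nkain2* was lower in HET, at 13067 CPM in WT against 12425 CPM, and within astro as well, at 1445 against 1082 CPM. Within neurons *Nkain2* was higher in HET, at 1812 CPM in WT against 2085 CPM. *Nkain1* was higher in HET within oligo, at 140 CPM in WT against 213 CPM, and within neurons, at 11.6 against 16.8 CPM. In astro *Nkain1* was at 20.8 and 20.7 CPM. None of the 3 other beta or proton pump genes in the table, *Atp1b4*, *Atp4a* and *Atp12a*, reached 200 UMIs.

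Of 6 other cation chloride cotransporters 3 were higher and 3 lower. *Slc12a4*, which encodes KCC1, was lower at −0.59, and *Slc12a7*, which encodes KCC4, was at 0.28 with an interval from −0.12 to 0.68. *Slc12a9* was at −0.43 and lower in 10 clusters, *Slc12a3* at −0.39, *Slc12a8* at 0.69 and *Slc12a1* at 0.23. *Slc12a4* rested on 194 UMIs in WT and 121 in HET.

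The WNK kinase pathway phosphorylates both cotransporters, activating NKCC1 and inhibiting KCC2. Of its 8 genes 5 were higher and 3 lower, with a median of 0.15, and none passed 1.2-fold. *Stk39*, which encodes the kinase SPAK that acts on the cotransporters directly, was at 0.18 and *Oxsr1*, its relative, at 0.23. In epend.2 *Stk39* was at 3221 CPM in WT and 3854 CPM in HET, against 186 and 229 CPM in neurons. The part of that cluster in the *Stk39* ratio was not tested. *Wnk1*, *Wnk2*, *Wnk3* and *Wnk4* were at −0.073, 0.16, 0.23 and −0.21, and the adaptors *Cab39* and *Cab39l* at −0.23 and 0.14. Relative to the median gene, *Wnk1* would lie on the higher side, as would *Slc4a8* below.

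Of 5 other transporters of chloride or bicarbonate, 1 was higher and 4 were lower, a share near that of all genes lower in HET. *Clcn2*, a chloride channel gene, was at −0.45 and lower in 11 clusters, *Slc4a3*, an anion exchanger gene, at −0.38, *Clcn3* at −0.14 and *Slc4a8* at −0.085. *Slc4a10*, a bicarbonate transporter gene, was at 0.091. Its level in neurons was above that in astrocytes, with a mean log2 ratio of 3.07. In the choroid plexus cluster epend.2 it was higher still, at 2482 CPM in WT and 3730 CPM in HET. Neurons were at 343 and 383 CPM. Epend.2 had 108 WT and 6 HET nuclei, and its part in the *Slc4a10* ratio was not tested.

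Genes with the pattern most like each of the 5 were taken by Pearson r of log2(CPM + 1) over the 12 clusters in both libraries (24 points, which share libraries and depth). These values are descriptions and have no p-value. For *Atp1b2* they were *Slc1a2* (r = 0.94), *Ndrg2*, *Id2*, *Gfap* and *Apoe*. For *Slc12a2* they were *D16Ertd472e* (0.94), *Trf*, *Atp8b1*, *Sept7* and *Tmem63a*. For *Slc12a5* they were *Bmerb1* (0.94), *Brinp1*, *Cntn4* and *Grin1*. The values were lower for *Atp1b1*, whose nearest were *Thy1* (0.88), *Tmem184c*, its neighbour *Nme7* (0.87), *Leprotl1* and *Nsg1*. They were lowest for *Atp1b3*, with *Cntln* (0.78), *Akap7*, *Tdp2*, *Gm50034* and *Pik3cb*.

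By the GENCODE vM21 annotation (mm10), none of the 5 genes overlaps another gene on its own strand. *Atp1b1* (ENSMUSG00000026576) lies on chromosome 1 from 164437109 to 164458355, *Atp1b2* (ENSMUSG00000041329) on chromosome 11 from 69599736 to 69605942, and *Atp1b3* (ENSMUSG00000032412) on chromosome 9 from 96332655 to 96364442, all on the minus strand. *Slc12a5* (ENSMUSG00000017740) lies on the plus strand of chromosome 2 from 164960802 to 164999731. *Slc12a2* (ENSMUSG00000024597) spans 68.1 kb. UMIs were counted per gene, so isoforms of a gene were not told apart.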

How the data were processed

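The authors deposited raw counts, the UMIs of each gene in each nucleus. Per the labels and the study's methods, libraries followed the 10x Genomics 3′ v3.1 protocol, and reads were aligned and counted by Cell Ranger with the default mm10 reference. Nuclei with few genes or much mitochondrial RNA, and mitochondrial, hemoglobin and some other genes, were removed by the authors in Seurat 4.1. The version of Cell Ranger, its use of introns and strand, and the doublet caller are not given in the sources used here. The deposited percent values are the ribosomal and mitochondrial UMIs of a nucleus as computed by the authors, and the deposited doublet score is used in 1 alternative. Clusters, finer subclusters and reference labels were taken as the authors deposited them. Nothing was realigned or reclustered.

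UMIs were summed over nuclei and expressed as CPM, the log2 ratio of which has an exact conditional binomial interval. Precision is limited by UMIs, from 4 for *Atp1b2* in WT neuron.7 to 29839 for *Atp1b1* in WT. Thinned shares are expected shares at 1000 UMIs per nucleus, which left out 0 nuclei. The cells are not replicates, so no test was made. The genes named are the 5, every listed related gene with at least 200 UMIs, and for each of the 5 the 5 genes with the highest Pearson r. Some genes that meet this rule are not reported here. Other genes, such as *Nme7* among its overlaps, cell type markers and *Scn1a*, serve as checks. These genes, lists and thresholds were chosen with earlier results of these data known. Alternatives were equal cluster weights, median scaling, totals without ribosomal protein genes, nuclei with at least 2000 UMIs, the mean over nuclei, no nuclei of the highest 5% of doublet scores and a minimum of 50 UMIs per gene. Tested on simulated data for all nuclei (16347 genes, 200 of them changed 2-fold), the intervals held the true ratio in 96.5% of changed genes. The simulated counts were Poisson, as the intervals assume, so this checks the calculation only. They held no spread between nuclei, animals or libraries. The tools were numpy 2.4.6, scipy 1.17.1, pandas 2.3.3 and matplotlib 3.10.9 in Python 3.11.15.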

Additional observations from a re-analysis of the deposited data

Results flagged for a closer look

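For 2 of the 5 genes, some clusters had a log2 ratio (HET over WT) whose counting interval lay above 0 and others had one below 0. The difference between clusters was not tested, since each genotype is 1 library. *Atp1b3* was higher in HET in epend.1 (0.82) and oligo (0.14) and lower in neuron.1 (−0.15) and neuron.3 (−0.29). The epend.1 value rests on 37 WT and 35 HET UMIs. Neuronal markers in that cluster summed to 3108 CPM in WT and 6802 CPM in HET with all 4 counted in both, and oligodendrocyte precursor markers to 562 and 26.4 CPM with 2 of 3 counted in both. Within its main subcluster 23 the value was 0.68 (interval −0.05 to 1.42). The part of these cells in the value was not tested.

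*Slc12a2* was higher in HET in endo (0.46) and lower in micro (−0.41) and neuron.7 (−1.11). Inside endo, subcluster 29, which held *Slc12a2* at 493 CPM over both libraries, made up 45 of 222 WT and 41 of 122 HET nuclei. The log2 ratio was 0.30 (interval −0.32 to 0.89) within subcluster 17 and 0.05 (−0.57 to 0.66) within subcluster 29. In the micro cluster the oligodendrocyte markers summed to 2948 CPM in WT and 2191 CPM in HET, with all 4 counted in both. Inside its subclusters 18, 20 and 28 the *Slc12a2* ratio was −0.17, −0.25 and −0.08, each with an interval that spanned 0. The neuron.7 value rests on 31 WT and 11 HET UMIs, with oligodendrocyte markers at 463 and 461 CPM. No part of these values was traced to a cause by a test.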

How the results depend on the processing

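No paired analysis was possible because each genotype has 1 library, and for the same reason no library could be left out. Of 40 alternative values of the genotype ratios, 26 stayed inside the counting interval, 11 moved outside it and 3 changed sign. With the median gene set to 0, the log2 ratios (HET over WT) of *Atp1b1*, *Atp1b2*, *Atp1b3*, *Slc12a2* and *Slc12a5* were −0.22, 0.40, 0.037, 0.30 and −0.046. As a mean over nuclei of CPM, they were −0.41, 0.21, 0.012, 0.27 and −0.24. With equal cluster weights, *Atp1b2* was at 0.15, *Slc12a2* at −0.0061 and *Slc12a5* at −0.057. In the nuclei with agreeing labels, an alternative chosen after seeing the data, *Slc12a2* was at 0.25. *Atp1b1* was below 0 in every setting run, from −0.41 to −0.22. Of 15 alternative values for neurons over astrocytes, 13 stayed inside the counting intervals of the libraries, and the mean over nuclei gave −4.01 for *Atp1b2* and −0.35 for *Slc12a2*, against −4.44 and −0.66. With a minimum of 50 UMIs, 6788 genes were at least 1.2-fold lower and 3727 higher, against 5500 and 2546. The 10 clusters that could be limited to nuclei with agreeing labels all kept *Atp1b1* lower in HET. Thinning lowered each share of nuclei, as its construction requires. Depth limits the smaller clusters: with 4 UMIs in WT and 9 in HET, the *Atp1b2* ratio in neuron.7 had an interval from −0.28 to 3.71.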

Other observations

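Clusters with under 30 nuclei in a library were not compared between genotypes on their own, although they count in the values over all nuclei and all neurons, and their values are given here. In neuron.8, with 44 WT and 9 HET nuclei, *Atp1b3* took 54.1% (interval 49.4 to 58.8) of the beta subunit UMIs in WT and 58.4% (47.5 to 68.8) in HET, a higher share than in any of the 12 larger clusters, and *Atp1b1* was low at 148 and 151 CPM. The *Slc12a2* UMIs per *Mog* UMI were 9.90 (5.16 to 21.3) there, close to the choroid plexus cluster epend.2 and above all neurons together. In neuron.6, with 120 WT and 5 HET nuclei, *Atp1b3* took 39.1% of the WT beta subunit UMIs and the log2 ratio of *Slc12a5* over *Slc12a2* was 0.48 (0.16 to 0.81) in WT. In epend.2, with 108 WT and 6 HET nuclei, *Atp1b1* reached 769 CPM (685 to 861) in WT and 912 CPM in HET on 22 UMIs, and took 81.8% of the WT beta subunit UMIs. Neuron.9, with 35 WT and 2 HET nuclei, held 74 WT UMIs of *Atp1b1*, or 873 CPM. Its WT nuclei held choroid plexus genes at 5107 CPM and oligodendrocyte genes at 4494 CPM, above the neuronal genes at 3468 CPM, and their part in this level was not tested.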
